A study of Rattus norvegicus with 83 samples.

Results

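Rats of the Sprague-Dawley strain whose dams received methimazole were compared between 2 labelled ages, pup day 16 (PD16) and gestational day 21 (GD21). All 32 libraries of the series that carry the label methimazole were used, of 83 in all. They were taken by their labels alone, with no measured value. The PD16 libraries numbered 20, of which 10 were of the dose of 8 mg/kg per day (MMI8) and 10 of 16 mg/kg per day (MMI16). The GD21 libraries numbered 12, with 6 of MMI8 and 6 of MMI16. Every dam of these groups had been dosed orally every day from gestational day 7. The protocol and design texts of the series give different last days of dosing. By the labels, exposure had lasted longer in PD16 rats than in GD21 rats. Age and length of exposure cannot be told apart. The 16 libraries of rats given corn oil (10 PD16 and 6 GD21) and the 35 of rats given amitrole at 25 or 50 mg/kg (23 PD16 and 12 GD21) served only to ask where the methimazole age difference departed from theirs. Each library is labelled as testis, and RNA was read at the 3′ end of polyadenylated transcripts after pooling of barcoded samples (BRB-seq).

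Methimazole blocks thyroid peroxidase, the enzyme that couples iodine to thyroglobulin, and lowers thyroid hormone in the dam and the offspring. The adrenal gland, whose transcripts these libraries hold, has an outer cortex that turns cholesterol into corticosterone and aldosterone under the control of the pituitary hormone ACTH, and an inner medulla of chromaffin cells that make adrenaline. Around birth in the rat the gland changes from a rapidly dividing fetal organ to a slowly growing secretory one. Circulating red cells also change in the course of development: primitive cells carrying embryonic globins (zeta and epsilon chains) are replaced by cells with adult globins.

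Several measurements go against the labels and stand before the results. The 18 testis genes in the table summed to 41.9 CPM (median; CPM is a gene's count scaled so that every library has the same total) in PD16 methimazole libraries and 86.7 CPM in GD21 ones, mostly Sox9 and Clu, and 5.75 and 4.76 CPM at most without Sox9, Clu, Gsta2 and Cyp17a1. Transcripts of 9 adrenal cortex genes summed to 12527 to 32383 CPM in PD16 libraries and 30150.5 to 46587 CPM in GD21 libraries. Embryonic globins were 8.79 to 23.0% of all globin counts in the libraries labelled PD16, against 0.053 to 0.343% in those labelled GD21. In vehicle libraries the share was 11.6 to 19.4% at PD16 and 0.0891 to 0.242% at GD21. In amitrole libraries it was at most 0.368% at PD16 and 0.0716 to 0.878% at GD21. Among methimazole and vehicle libraries the embryonic globins are thus high where the label gives the older age, and among amitrole libraries they are not. Whether labels were exchanged was not tested, and every age below is the age on the label. Total counts were 202270 to 1186973 in PD16 libraries (median 433718.5) and 507249 to 1526341 in GD21 libraries (median 1114057.5). One count is 2.31 CPM at the PD16 median and 0.898 CPM at the GD21 median. Alb, the serum albumin gene of liver, reached 200 CPM or more in 1 PD16 library (MMI16 9) and 4 GD21 libraries (MMI8 45 and 70, MMI16 47 and 72). The PD16 library MMI16 10 had the lowest total of the 32.

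Of 5171 genes that could be tested, 3222 differed between the ages, or 62.3% (edgeR quasi-likelihood F test with dose as a block, Benjamini-Hochberg adjusted p under 0.05). PD16 was higher for 1557 genes (30.1%) and lower for 1665 (32.2%). Most differences were small. A 2-fold difference or more was reached by 269 higher and 579 lower genes, and a 4-fold one by 16 higher and 128 lower genes. The 20 PD16 and 12 GD21 libraries did not overlap at 206 genes that were higher in PD16 (3.98%) and 181 that were lower (3.5%). The median log2 fold change of all tested genes, PD16 minus GD21 here and throughout, was 0.00051. With every library thinned to the lowest total, the calls were 937 higher and 964 lower of the 3131 genes that could then be tested. With so many genes called, a group of genes with a few calls in each direction is near what all genes show. Some genes reach the test through 1 age alone, 955 through PD16 and 236 through GD21. An age counted as reached with 6 libraries at the filter's level, of 20 in PD16 and of 12 in GD21. A gene that reached it only through PD16 therefore need not be higher there. Where such a gene is high only at that age, it had little room not to differ. Counts below therefore give how many list members reached the test in both ages.

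Embryonic globins were higher in PD16, and Hbz and Hbe1 had the highest log2 fold changes of all named genes. Of the 3 tested, 1 reached the test in both ages. Hbz, the zeta chain and embryonic alpha-type globin, had 356, 832 and 1469 CPM (lowest, median and highest) in PD16 libraries and 0, 6.09 and 10.4 CPM in GD21 libraries. The age groups lay far apart at Hbz, and the log2 fold change was 6.95 (SE 0.26, edgeR adjusted p = 3.01e-20). Hbe1, the epsilon chain of the beta-type cluster, had 3265, 5977 and 7361 CPM in PD16 libraries and 27.1, 97.2 and 279 CPM in GD21 libraries. No Hbe1 values overlapped either, with a log2 fold change of 5.54 (SE 0.28, edgeR adjusted p = 4.35e-17). Hbg1, named as a gamma chain, had 19.8, 96.1 and 209 CPM in PD16 and 3.57, 10.3 and 22.2 CPM in GD21 libraries, and these ranges met at their edges. Its log2 fold change was 3.02 (SE 0.27, edgeR adjusted p = 1.47e-11). Globins are near copies of each other, and how the authors' counting divided reads among them is not given in the sources used here. Hbe2, also embryonic, was too low to test.

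**Figure D1:**
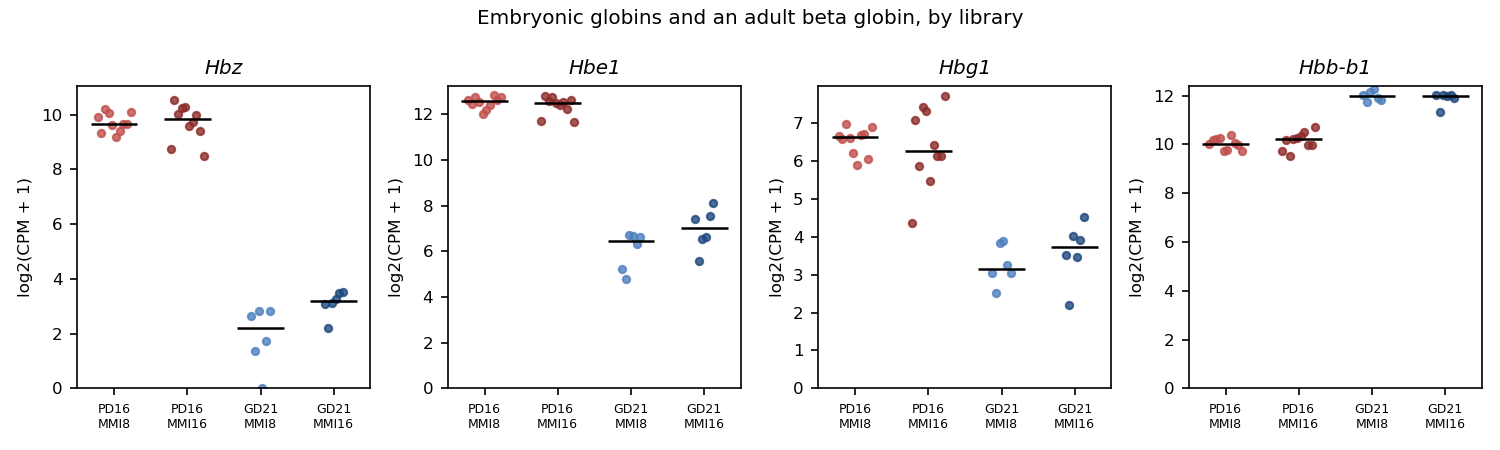
Each point is 1 methimazole library, on the log2(CPM + 1) scale, and the line is the group median, with 10 libraries in each PD16 group and 6 in each GD21 group. The 3 embryonic globins Hbz, Hbe1 and Hbg1 were higher in PD16 and the adult beta globin Hbb-b1 was lower, at both doses.

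Adult globins lay the other way. All 6 that could be tested were lower in PD16 libraries, at a median log2 fold change of -1.51, and all 6 reached the test in both ages. Hbb-b1 had 733, 1109.6 and 1672 CPM in PD16 libraries and 2570.4, 4089 and 4899 CPM in GD21 libraries, with no overlap and a log2 fold change of -2.04 (SE 0.11, edgeR adjusted p = 4.21e-18). The alpha chain Hba-a1 had 11708, 16476 and 20950.1 CPM in PD16 and 24219, 37860.0 and 48624 CPM in GD21 libraries, again without overlap (-1.42, edgeR adjusted p = 1.69e-15). All globins together were 4.07% ± 0.59 of counts in PD16 libraries and 8.28% ± 1.53 in GD21 libraries (SD, n = 20 and 12). In bulk RNA, fewer red cells and less globin RNA per red cell cannot be told apart, and the same holds for every cell type below. Of 11 other red cell genes tested, 9 of which reached the test in both ages, 7 were lower in PD16 and none was higher (median -0.95). Alas2, which makes the first intermediate of haem in red cells, had 74.7, 123 and 165 CPM in PD16 libraries and 209, 314 and 437 CPM in GD21 libraries. Its ranges did not overlap (-1.56, edgeR adjusted p = 2.94e-14).

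Transcripts for the first steps of steroid production were lower in PD16. Of 8 tested genes of cholesterol import and side-chain cleavage, 6 were lower and none was higher, with a median log2 fold change of -1.19. All 8 reached the test in both ages. Star, which carries cholesterol to the inner mitochondrial membrane, had 169, 466 and 773 CPM in PD16 libraries and 749.5, 999.5 and 1256 CPM in GD21 libraries. Only the top of the PD16 range touched the bottom of the GD21 range, and the log2 fold change was -1.39 (SE 0.14, edgeR adjusted p = 4.76e-10). Cyp11a1, the side-chain cleavage enzyme that makes pregnenolone, had 2713, 8628 and 11437 CPM in PD16 and 9974, 12638 and 20112 CPM in GD21 libraries, a smaller and overlapping difference (-0.94, edgeR adjusted p = 1.25e-07). Its electron donors Fdx1 (-1.54, edgeR adjusted p = 1.73e-07) and Fdxr (-1.51, edgeR adjusted p = 8.63e-16) and the outer-membrane protein Tspo (-1.71, edgeR adjusted p = 2.50e-19) were lower as well. The lipoprotein receptor Scarb1 had 596, 2790.2 and 3877 CPM in PD16 and 2929.7, 4181 and 5799 CPM in GD21 libraries and was also lower. Tspo had 269, 433 and 597 CPM in PD16 libraries and 813, 1207 and 1483 CPM in GD21 libraries, without overlap. Stard3 and Npc2, which move cholesterol within endosomes, had log2 fold changes of 0.03 and 0.11 and were not called.

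Later steps of corticosteroid synthesis did not move as a block. Of 11 enzymes tested, 1 was higher and 6 were lower (median -0.40), and 9 of the 11 reached the test in both ages. Cyp21a1, the 21-hydroxylase, had 1860.4, 3574 and 4566 CPM in PD16 libraries and 6950.1, 9478 and 12008 CPM in GD21 libraries. All 20 PD16 values lay below all 12 GD21 values, at a log2 fold change of -1.65 (SE 0.10, edgeR adjusted p = 3.71e-17). Cyp11b1, the 11-beta-hydroxylase that makes corticosterone, had 2329, 5856 and 9284 CPM in PD16 and 3641, 4798 and 7064 CPM in GD21 libraries. The Cyp11b1 ranges overlapped over most of their width, the log2 fold change was 0.01 (SE 0.13) and the gene was not called (adjusted p = 0.95, edgeR). Hsd3b1, the 3-beta-dehydrogenase, was lower by a small amount (-0.35, edgeR adjusted p = 0.00172). The enzyme that was higher was Akr1c14, a 3-alpha-hydroxysteroid dehydrogenase, with 267, 438 and 913 CPM in PD16 libraries and 10.3, 55.8 and 98.3 CPM in GD21 libraries. No Akr1c14 value overlapped (2.85, edgeR adjusted p = 2.37e-13). Akr1c3, a related aldo-keto reductase in no list, had 54.4, 160.5 and 438 CPM in PD16 and 0, 4.53 and 17.0 CPM in GD21 libraries, also without overlap (4.66, edgeR adjusted p = 1.69e-11). Akr1c3 reached the test only through PD16, where it is high, so its separation follows in part from the filter. Akr1c14 and Akr1c3 have close paralogs and their counts are uncertain to that extent. Among the libraries numbered up to 56 alone, 3 of the 11 enzymes were lower.

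The promoter of Cyp21a1 is shown because its transcript separated the ages fully and because it holds the letters AAGGTCA, a half-site bound by the steroidogenic factor SF-1 (Nr5a1), in capitals here. The run covers 250 bases before the start, chr20:4028141-4028390 on the plus strand of GRCr8, from RefSeq.
Cyp21a1: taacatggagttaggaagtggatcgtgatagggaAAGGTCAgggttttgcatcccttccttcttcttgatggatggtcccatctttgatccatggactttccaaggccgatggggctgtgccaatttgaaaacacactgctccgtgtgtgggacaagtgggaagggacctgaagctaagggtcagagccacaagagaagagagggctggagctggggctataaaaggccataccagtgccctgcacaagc
On either strand these letters stand in 2 of the 9 promoters found for the tested corticosteroid enzymes. They stand in 0 of 5 for cholesterol import and side-chain cleavage, and in 3.99% of all 33469 promoters of this length. A match describes the letters and not a bound site.

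Receptors and regulators of the cortex divided. Of 12 tested, 8 of which reached the test in both ages, 8 were lower in PD16 and 4 higher (median -0.43). Mc2r, the ACTH receptor, had 1.92, 7.60 and 19.8 CPM in PD16 libraries and 3.94, 26.5 and 38.7 CPM in GD21 libraries, overlapping over much of their width (-1.79, edgeR adjusted p = 6.89e-08). Prkaca, a catalytic subunit of the kinase that ACTH signalling activates, had 10.4, 26.6 and 64.3 CPM in PD16 and 55.2, 67.9 and 99.3 CPM in GD21 libraries (-1.55, edgeR adjusted p = 2.25e-11). Vsnl1, a calcium sensor of the aldosterone-making zona glomerulosa, had at most 9.39 CPM in PD16 libraries and at least 11.9 CPM in GD21 libraries (-2.87, edgeR adjusted p = 6.88e-11). The 4 higher genes were Inha, the inhibin alpha subunit (1.33, edgeR adjusted p = 8.13e-08), the nuclear receptor Nr4a1 (0.80, edgeR adjusted p = 0.0419), the angiotensin receptor Agtr1a (0.65, edgeR adjusted p = 3.47e-04) and Dlk1, a membrane protein of undifferentiated cortical cells (0.44, edgeR adjusted p = 0.0306). Library numbers were split for this work into 2 series, up to 56 (14 PD16 and 6 GD21) and from 57 (6 and 6). The labels give the numbers but name no series. Dlk1 was not called with library numbers up to 56 alone (adjusted p = 0.15) or with the number series as a covariate (adjusted p = 0.0607). In the libraries up to 56, 2 members of this list were higher and 5 lower.

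**Figure D2:**
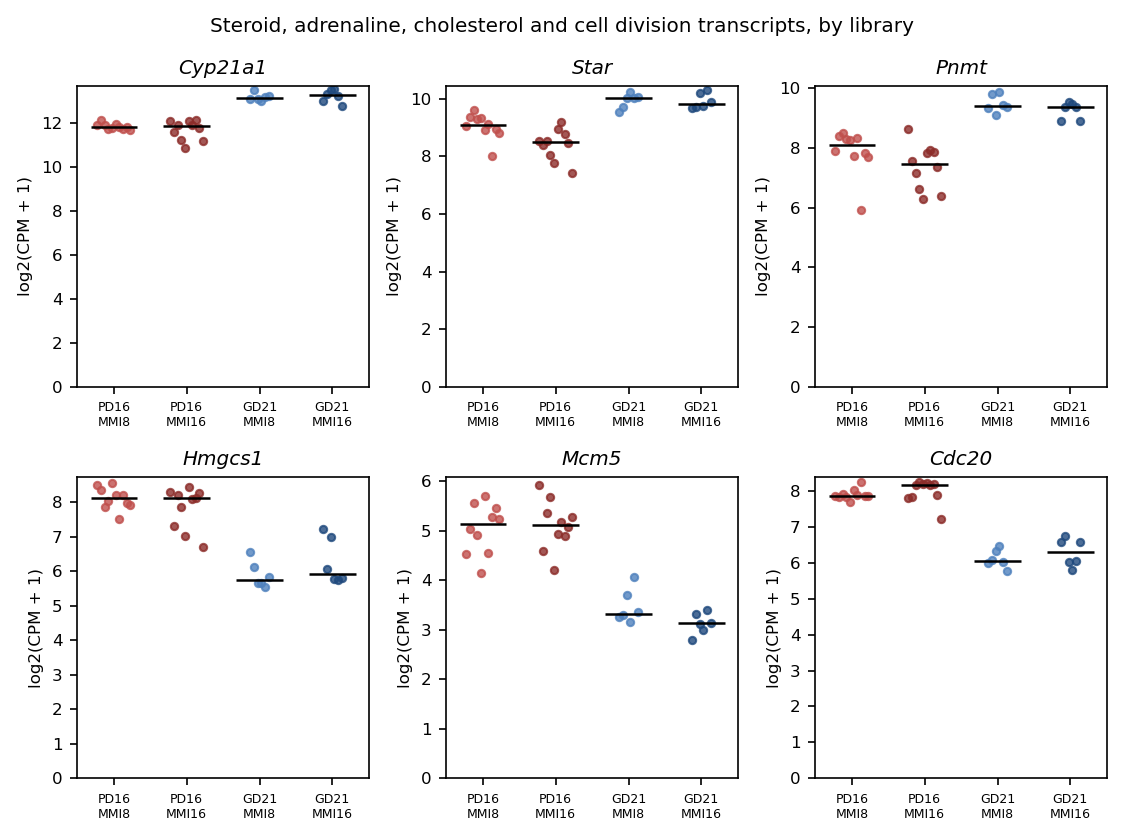
Each point is 1 library, on the log2(CPM + 1) scale, with the group median as a line, for 10 libraries in each PD16 group and 6 in each GD21 group. Cyp21a1, Star and Pnmt were lower in PD16, and Hmgcs1, Mcm5 and Cdc20 were higher.

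Most cholesterol synthesis genes were higher in PD16, whereas most genes of cholesterol import and side-chain cleavage were lower. Of 22 genes tested, 18 were higher and 2 lower, with a median log2 fold change of 1.07 against 0.00051 over all genes. Of the 22, 16 reached the test in both ages. Fdps, which makes farnesyl diphosphate, had 529.9, 1755 and 2331 CPM in PD16 libraries and 225, 349 and 712 CPM in GD21 libraries. The upper GD21 values met the lower PD16 values, and the log2 fold change was 1.88 (SE 0.20, edgeR adjusted p = 1.34e-09). Hmgcs1, the cytosolic synthase that feeds the pathway, had 104, 278 and 379 CPM in PD16 and 45.4, 55.2 and 149 CPM in GD21 libraries (1.63, edgeR adjusted p = 3.58e-09). Msmo1 (1.82, edgeR adjusted p = 3.09e-08), Cyp51 (1.63, edgeR adjusted p = 4.68e-06) and Sqle (1.57, edgeR adjusted p = 1.18e-07) were higher too. The 2 lower members were Srebf2, the transcription factor that drives these genes (-1.01, edgeR adjusted p = 6.91e-07), and Dhcr7, which forms cholesterol in the last step (-0.40, edgeR adjusted p = 0.0113).

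Chromaffin cell genes were mostly lower. Of 12 tested, 10 of which reached the test in both ages, 8 were lower and 1 was higher (median -0.56). Pnmt, the enzyme that turns noradrenaline into adrenaline, had 59.3, 228 and 400.5 CPM in PD16 libraries and 476, 669.5 and 942 CPM in GD21 libraries, with no overlap (-1.87, edgeR adjusted p = 3.32e-10). Dbh, which makes noradrenaline, was the higher one, with 134, 240.1 and 482 CPM in PD16 and 78.2, 143 and 188 CPM in GD21 libraries (0.64, edgeR adjusted p = 1.23e-04). Neighbouring steps of adrenaline synthesis thus differed in opposite directions. Th, which starts the pathway, had 97.0, 122 and 272 CPM in PD16 libraries and 71.7, 163 and 309 CPM in GD21 libraries, nested ranges with a small difference (-0.57, edgeR adjusted p = 0.00126). Th was not called among library numbers from 57 (log2 fold change -0.44, adjusted p = 0.203), where 4 of the 12 were lower. Chga, the granule protein chromogranin A, had 3.33, 15.0 and 50.5 CPM in PD16 and 13.0, 63.4 and 102 CPM in GD21 libraries (-1.89, edgeR adjusted p = 2.10e-06). Chgb, its relative, was not called (0.25). The vesicular monoamine transporter Slc18a1 was not called either (0.08).

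Neuronal transcripts, which sympathetic neuroblasts in the gland also carry, were higher for 8 of 14 tested genes and lower for 1 (median 0.58), and 7 of the 14 reached the test in both ages. Snap25, a protein of vesicle fusion, had 10.2, 15.9 and 26.9 CPM in PD16 libraries and 3.60, 4.37 and 11.9 CPM in GD21 libraries (1.31, edgeR adjusted p = 6.80e-07). Nnat, an imprinted membrane protein of developing neurons, was higher too (0.99, edgeR adjusted p = 1.38e-04). Tubb3, a neuronal tubulin, was the lower one (-0.67, edgeR adjusted p = 0.023), and no member was lower without the 5 libraries high in Alb. Stmn2, at the start of axon growth, was not called (-0.14). Among library numbers up to 56, 5 neuronal members were higher. Of the Schwann cell and glia genes only Mia, a small secreted protein, could be tested, with 4.94, 12.8 and 26.3 CPM in PD16 and 54.4, 101 and 173 CPM in GD21 libraries and no overlap (-3.10, edgeR adjusted p = 9.28e-19). Mia reached the test only through GD21. Sox9, a transcription factor of progenitors, had 2.53, 18.4 and 45.7 CPM in PD16 libraries and 13.5, 32.3 and 74.6 CPM in GD21 libraries (-1.18, edgeR adjusted p = 1.90e-04). Of the 3 tested genes of the Sox9 and Notch list, 2 reached the test in both ages. The Notch ligand Jag1 (-1.51, edgeR adjusted p = 8.42e-07) and the receptor Notch2 (-0.63, edgeR adjusted p = 0.016) were lower as well. Notch2 lost its call when GD21 MMI8 45, MMI8 46 or MMI16 50 was left out (edgeR adjusted p 0.055 to 0.0651). It was also not called without the libraries high in Alb (edgeR adjusted p = 0.14) or among library numbers up to 56 (edgeR adjusted p = 0.199).

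Genes of cell division were higher in PD16 as a group. Of 31 tested genes of DNA replication and nucleotide supply, 27 were higher and 2 lower (median 1.04), and of 31 mitosis genes 27 were higher and none lower (median 1.01). In each list 23 members reached the test in both ages. Mcm5, a subunit of the replicative helicase, had 16.6, 33.8 and 59.3 CPM in PD16 libraries and 5.97, 8.63 and 15.6 CPM in GD21 libraries, without overlap (1.65, edgeR adjusted p = 2.85e-10). Cdc6, which loads that helicase on origins, had 22.7, 47.5 and 70.7 CPM in PD16 and 9.86, 12.9 and 19.0 CPM in GD21 libraries (1.51, edgeR adjusted p = 1.50e-11). Cdc20, an activator of the anaphase-promoting complex, had 148, 236 and 303 CPM in PD16 libraries and 53.5, 65.9 and 107 CPM in GD21 libraries (1.54, edgeR adjusted p = 3.96e-17). Both genes separated all PD16 from all GD21 libraries. So did Ccnb1, cyclin B1, with 207, 395 and 520.0 CPM in PD16 and 76.7, 107 and 175 CPM in GD21 libraries (1.55, edgeR adjusted p = 7.01e-16). Mki67, the common marker of cycling cells, had 32.5, 54.1 and 198 CPM in PD16 libraries and 13.8, 26.2 and 71.6 CPM in GD21 libraries, with overlapping ranges (0.85, edgeR adjusted p = 9.02e-05). The exceptions were Mcm4 (-0.45, edgeR adjusted p = 0.00118) and Slbp, a histone mRNA-binding protein (-0.56, edgeR adjusted p = 3.32e-05), which were lower, and Rrm2 and Tyms, which supply deoxynucleotides and were not called (-0.34 and -0.09).

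Promoters of 5 genes that were higher in PD16 are shown because members of these lists share known cell cycle or NF-Y letters, which were chosen with the genes known. Each run is the 250 bases before the start in RefSeq, on GRCr8, 5′ to 3′. Capitals mark E2F letters (TTTCCCGC or TTTGGCGC) in Mcm5 and Mcm7, the cell cycle homology region (TTTGAA) and NF-Y letters (CCAAT) in Cdc20, and NF-Y letters in Ccnb1 and Hmgcs1. All were searched on both strands, so capitals can show the reverse complement (GCGGGAAA, GCGCCAAA or ATTGG), and none of the motifs contains another.
Mcm5, chr19:13488563-13488812, plus strand: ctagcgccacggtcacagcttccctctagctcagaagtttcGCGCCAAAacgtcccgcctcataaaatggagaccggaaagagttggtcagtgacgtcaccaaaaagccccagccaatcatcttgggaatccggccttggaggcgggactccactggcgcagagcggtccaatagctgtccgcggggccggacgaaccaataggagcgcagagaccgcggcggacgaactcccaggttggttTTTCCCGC
Mcm7, chr12:22163179-22163428, minus strand: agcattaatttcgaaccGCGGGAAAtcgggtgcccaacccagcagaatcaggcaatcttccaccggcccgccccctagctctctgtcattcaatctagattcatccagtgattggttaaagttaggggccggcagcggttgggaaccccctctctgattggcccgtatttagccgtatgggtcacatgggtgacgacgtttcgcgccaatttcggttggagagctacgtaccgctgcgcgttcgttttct
Cdc20, chr5:137255800-137256049, minus strand: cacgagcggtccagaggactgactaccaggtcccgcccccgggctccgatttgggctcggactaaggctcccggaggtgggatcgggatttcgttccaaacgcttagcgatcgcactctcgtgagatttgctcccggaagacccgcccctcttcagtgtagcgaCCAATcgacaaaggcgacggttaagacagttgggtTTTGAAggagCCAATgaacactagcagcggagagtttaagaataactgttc
Ccnb1, chr2:33655226-33655475, minus strand: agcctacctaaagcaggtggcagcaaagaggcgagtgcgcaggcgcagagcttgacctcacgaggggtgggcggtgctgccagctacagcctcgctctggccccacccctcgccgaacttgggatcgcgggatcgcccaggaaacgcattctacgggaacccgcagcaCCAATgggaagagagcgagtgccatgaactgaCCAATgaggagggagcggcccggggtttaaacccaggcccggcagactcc
Hmgcs1, chr2:53382054-53382303, plus strand: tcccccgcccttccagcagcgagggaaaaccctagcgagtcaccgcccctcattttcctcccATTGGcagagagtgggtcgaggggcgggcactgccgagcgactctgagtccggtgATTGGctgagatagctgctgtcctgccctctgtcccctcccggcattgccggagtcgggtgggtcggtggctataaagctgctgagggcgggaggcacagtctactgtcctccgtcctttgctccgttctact
E2F letters stood in 8 of 27 replication genes with a promoter (29.6%), in 2.89% of 4462 promoters of all tested genes and in 1.21% of all 33469. TTTGAA stood in 16 of 27 mitosis genes (59.3%), against 10.2% of tested genes and 16.2% of all promoters. CCAAT stood in 23 of 27 mitosis genes (85.2%) and 14 of 18 cholesterol synthesis genes (77.8%), against 38% of tested genes and 34% of all promoters. These list counts cover tested members whatever their direction. The 8 with E2F letters include Slbp, which was lower, and Tyms, which was not called. Srebf2, which was lower, is among the 14 with CCAAT. Over all 1345 higher genes with a promoter the share with CCAAT was 41.7%, and over the 1423 lower ones 36.6%. The sterol element letters TCACCCCAC stood in none of the 18 cholesterol synthesis promoters and in 0.409% of all promoters. These counts describe letters in a window and say nothing of binding.

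Imprinted and fetal growth genes, of which 6 of 14 were higher and 2 lower (median 0.07), did not share a direction, and 12 reached the test in both ages. Peg3, a paternally expressed zinc finger gene, had 70.4, 102 and 336 CPM in PD16 libraries and 28.6, 44.1 and 80.6 CPM in GD21 libraries (1.05, edgeR adjusted p = 9.03e-07). Igf2, the fetal growth factor, had 76.2, 149 and 687 CPM in PD16 and 85.9, 135 and 463 CPM in GD21 libraries, ranges that overlapped almost wholly (-0.26, adjusted p = 0.431). H19, the RNA made from the neighbouring gene, had 57.1, 145 and 583 CPM in PD16 libraries and 57.1, 100.4 and 999.9 CPM in GD21 libraries and was not called (-0.30, adjusted p = 0.457). H19 turned round without the libraries high in Alb, to a log2 fold change of 0.78 with an adjusted p of 0.00829, and Igf2 to 0.37 without a call. Plagl1, an imprinted growth regulator, was lower (-0.93, edgeR adjusted p = 4.13e-06). Igf1, the growth factor of postnatal life, had 65.0, 185 and 277 CPM in PD16 libraries and 343, 683 and 1936 CPM in GD21 libraries, without overlap (-2.29, edgeR adjusted p = 2.65e-11). Its binding proteins Igfbp2 (-1.37, edgeR adjusted p = 2.64e-11) and Igfbp6 (-2.81, edgeR adjusted p = 5.59e-13) were lower, and Igfbp4 was higher (1.10, edgeR adjusted p = 0.00272), though not called among numbers up to 56 (adjusted p = 0.0855). Over the IGF list, 2 of 9 were higher and 4 lower, at a median of -0.26, and 6 of the 9 reached the test in both ages. Of 6 fetal RNA-binding and chromatin genes, 3 were higher and 1 lower, and 3 reached the test only through PD16. Cirbp, the cold-inducible RNA-binding protein, was the lower one, with 30.9, 71.5 and 132 CPM in PD16 and 229, 296 and 544 CPM in GD21 libraries and no overlap (-2.51, edgeR adjusted p = 5.11e-17).

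Stroma and vessels held changes in both directions. Of 23 matrix genes, 4 were higher and 9 lower (median -0.16), and 19 reached the test in both ages. Dpt, the matrix protein dermatopontin, had 0, 1.96 and 8.12 CPM in PD16 libraries and 16.6, 29.9 and 88.6 CPM in GD21 libraries, without overlap (-4.08, edgeR adjusted p = 1.16e-13). Mfap5, of elastic microfibrils, had 3.52, 10.0 and 22.4 CPM in PD16 and 55.0, 85.0 and 215 CPM in GD21 libraries (-3.28, edgeR adjusted p = 4.26e-17). The fibrillar collagens Col1a1 (-0.61, edgeR adjusted p = 0.0169) and Col1a2 (-0.57, edgeR adjusted p = 0.0132) differed less, and the basement membrane laminin Lama4 was higher (1.27, edgeR adjusted p = 8.97e-07). Tagln, an actin-binding protein of smooth muscle, was lower (-2.15, edgeR adjusted p = 3.40e-13), and Pdgfrb, the receptor of pericytes, was higher (1.53, edgeR adjusted p = 6.79e-06), among 10 mesenchymal genes of which 4 were lower and 1 higher and 7 reached the test in both ages. Of 13 endothelial genes 6 were higher and 2 lower (median 0.28), and 9 reached the test in both ages. Aplnr, the apelin receptor, had 24.4, 51.3 and 114 CPM in PD16 libraries and 6.52, 11.8 and 23.9 CPM in GD21 libraries (1.87, edgeR adjusted p = 5.87e-13). Kdr, the main receptor for vascular endothelial growth factor, had 49.7, 96.1 and 157 CPM in PD16 and 207, 278 and 360.0 CPM in GD21 libraries (-1.70, edgeR adjusted p = 1.16e-16). Both separated the ages fully, in opposite directions.

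All macrophage and neutrophil genes that could be tested were lower in PD16. All 15 macrophage genes were lower in PD16 (median -1.73), 10 of which reached the test in both ages and 5 only through GD21. Cd163, the scavenger receptor for haemoglobin, had 0, 0 and 4.94 CPM in PD16 libraries and 14.4, 21.0 and 74.3 CPM in GD21 libraries (-4.79, edgeR adjusted p = 5.01e-14). Mrc1, the mannose receptor, had 7.22, 16.5 and 59.3 CPM in PD16 libraries and 65.9, 139 and 285 CPM in GD21 libraries, without overlap (-3.10, edgeR adjusted p = 6.18e-14). Csf1r, the receptor for the growth factor macrophages live on, differed least of the 15 (-0.74, edgeR adjusted p = 0.00172). The antigen presentation list, which shares Cd74 with macrophages, had all 7 tested members lower (median -1.42). Of the 7, 5 reached the test in both ages and 2 only through GD21, where they are high. Among the 7 was B2m, the light chain of class I molecules (-1.65, edgeR adjusted p = 4.66e-10).

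All 6 neutrophil and alarmin genes tested were lower (median -3.92), and all 6 reached the test only through GD21, where they are high, so a lower level in PD16 follows in part from the filter. S100a8, a subunit of the alarmin calprotectin, had 0, 2.70 and 15.2 CPM in PD16 libraries and 27.6, 59.3 and 155 CPM in GD21 libraries, with no overlap (-4.19, edgeR adjusted p = 4.86e-14). Its partner S100a9 had 0, 9.02 and 22.8 CPM in PD16 and 53.3, 115 and 232 CPM in GD21 libraries (-3.90, edgeR adjusted p = 1.43e-14). The defensin RatNP-3b (-4.07, edgeR adjusted p = 1.21e-09) and the cathelicidin Camp (-3.94, edgeR adjusted p = 5.16e-12) had overlapping ranges. No lymphocyte or mast cell gene could be tested. The 13 lymphocyte genes in the table summed to 12.5 CPM (median) in PD16 libraries and 16.7 CPM in GD21 libraries.

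**Figure D3:**
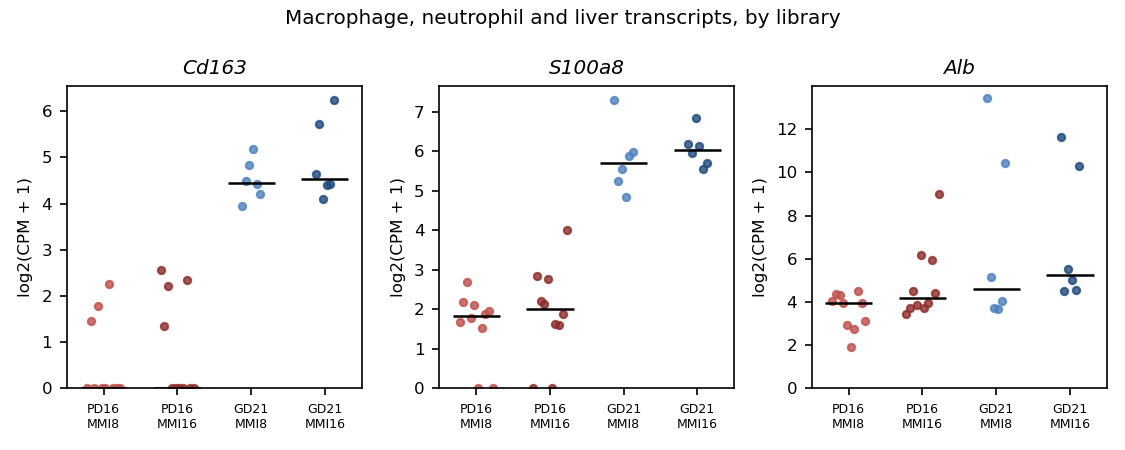
Each point is 1 methimazole library, on the log2(CPM + 1) scale, with the group median as a line, for 10 libraries in each PD16 group and 6 in each GD21 group. Cd163 and S100a8 were lower in all PD16 libraries, whereas Alb was high in 1 PD16 and 4 GD21 libraries.

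Liver transcripts were lower on average in PD16 but were set by a few libraries. All 9 liver genes tested were lower (median -4.02), and 3 reached the test in both ages. Alb had 2.82, 14.5 and 507 CPM in PD16 libraries and 11.8, 32.6 and 10976 CPM in GD21 libraries, and the medians differed far less than the highest values. Its log2 fold change was -5.04 (SE 1.06, edgeR adjusted p = 1.43e-04), and -0.53 (adjusted p = 0.121) without the 5 libraries at 200 CPM or more, where 3 of the 9 genes were lower. Without GD21 MMI8 45 alone Alb had -3.60, and without PD16 MMI16 9 it had -6.24. Ahsg, Tf and Ttr, which encode other plasma proteins, moved in the same way: without GD21 MMI8 45 their log2 fold changes were -3.54, -3.18 and -2.69, against -4.80, -4.27 and -4.02 with all libraries. The part of liver RNA in other results was not tested beyond the fits without those libraries, in which the list counts above moved by over 1.5 times for the liver, neuronal (lower) and ribosomal (lower) lists alone. Kidney and pancreas genes were too low to test, with 3.99 and 9.58 CPM as the medians of their sums in PD16 libraries and 2.16 and 10.2 CPM in GD21 libraries. The fat genes Cidea (-2.81, edgeR adjusted p = 1.73e-12) and Fabp4 (-1.60, edgeR adjusted p = 7.67e-08) were lower, and 1 of these 2 reached the test in both ages.

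Most genes of oxidant defence and respiration were lower in PD16. Of 25 tested genes of peroxide handling and Nrf2 targets, 3 were higher and 18 lower (median -0.68), with 22 reaching the test in both ages. Sod2, the mitochondrial superoxide dismutase, had 125, 325 and 495 CPM in PD16 libraries and 698, 840.1 and 1035 CPM in GD21 libraries, without overlap (-1.68, edgeR adjusted p = 2.12e-13). Prdx5 (-1.77, edgeR adjusted p = 4.57e-16), a peroxidase, Gsr (-2.21, edgeR adjusted p = 2.56e-12), which keeps glutathione reduced, and Sod3 (-2.63, edgeR adjusted p = 9.85e-14), the extracellular dismutase, were lower too. Cat, catalase, had 48.5, 109 and 142 CPM in PD16 and 103, 135 and 189 CPM in GD21 libraries, an overlapping and smaller difference (-0.57, edgeR adjusted p = 1.98e-05). Among 22 glutathione transferases and aldo-keto reductases, 3 were higher and 16 lower (median -0.50), and 20 reached the test in both ages. Gsta1 had 70.7, 144 and 285 CPM in PD16 libraries and 1043, 1298 and 1854 CPM in GD21 libraries, far apart (-3.35, edgeR adjusted p = 2.50e-19). Gstt2 had 35.2, 71.8 and 111 CPM in PD16 and 217, 454 and 631 CPM in GD21 libraries (-2.75, edgeR adjusted p = 1.09e-19). Both conjugate glutathione to foreign compounds and belong to families of close copies.

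Of 72 nuclear genes of mitochondrial respiration, all reaching the test in both ages, 57 were lower and 6 higher, by small amounts (median -0.34). Ndufa10, a subunit of complex I, stood apart with 33.7, 65.2 and 99.6 CPM in PD16 libraries and 205, 277 and 484 CPM in GD21 libraries (-2.39, edgeR adjusted p = 2.50e-19). Cycs, cytochrome c, was higher, with 529, 915 and 1074 CPM in PD16 and 273, 401 and 468 CPM in GD21 libraries (0.94, edgeR adjusted p = 4.70e-13). Ribosomal protein genes hardly differed: of 76, all reaching the test in both ages, 11 were higher and 6 lower (median -0.04), few beside the 62.3% of all genes called. Without the libraries high in Alb 20 were lower. Rpl3, of the large subunit, had 3832, 5376 and 6536 CPM in PD16 libraries and 2587, 2955 and 3665 CPM in GD21 libraries (0.59, edgeR adjusted p = 2.24e-09). The calls of Rpl39 and Rpl10 were lost on leaving out any of 16 and any of 8 single libraries.

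**Figure D4:**
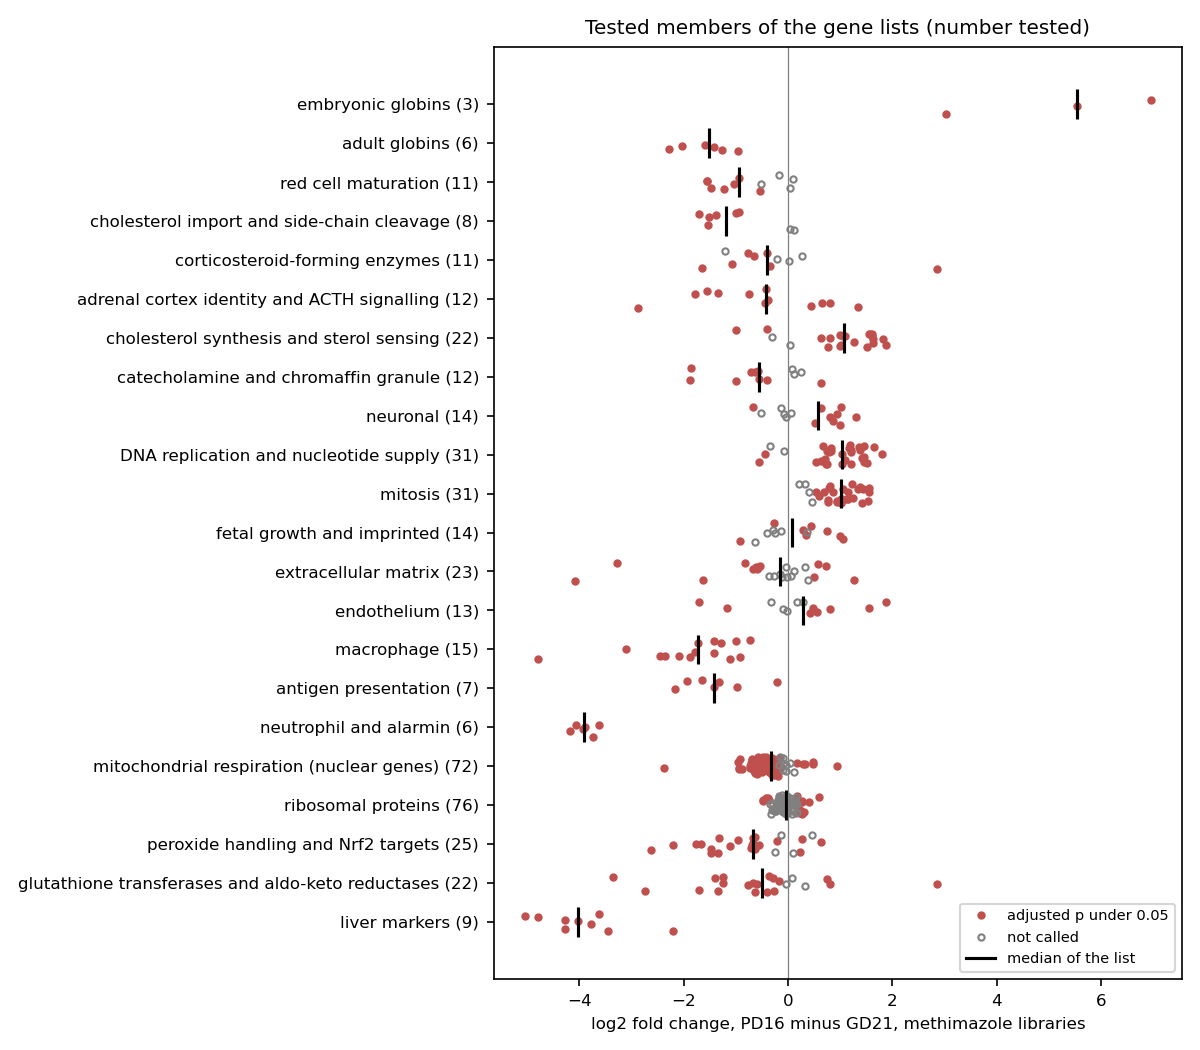
Each point is a tested member of a gene list, placed by its log2 fold change (PD16 minus GD21), filled where called, with the list median as a bar and the number tested in parentheses. Embryonic globins, cholesterol synthesis, replication and mitosis lie to the right, and macrophage, neutrophil and liver genes to the left.

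Thyroid hormone genes were sparse. Of 24 in the table, 5 could be tested, 3 of which reached the test in both ages, and 3 were lower. Cpt1a, which admits fatty acids to mitochondria and responds to thyroid hormone, had 22.7, 90.0 and 195 CPM in PD16 libraries and 318, 514 and 898 CPM in GD21 libraries, without overlap (-2.81, edgeR adjusted p = 4.47e-13). Dbp, a clock-controlled factor, was lower by less (-0.63, edgeR adjusted p = 0.00197) and was not called within either library number series alone, and Ttr belongs to the liver genes above. Klf9, a direct target of the hormone receptor, was below the filter, at 3.83 ± 3.24 CPM in PD16 and 11.9 ± 3.64 CPM in GD21 libraries (SD, n = 20 and 12). Thra, the receptor itself, had 10.3 ± 5.65 CPM in PD16 libraries and 8.64 ± 4.60 CPM in GD21 libraries, and was not tested either. Of 16 early response and heat shock genes 5 were higher and 6 lower, and 14 reached the test in both ages. Jund, a subunit of AP-1, had 43.8, 90.7 and 197 CPM in PD16 libraries and 208, 345 and 684 CPM in GD21 libraries (-2.24, edgeR adjusted p = 9.98e-13), and Hspa5, the chaperone of the endoplasmic reticulum, was higher (0.80, edgeR adjusted p = 1.33e-12). Eif2s3y, a Y-linked gene, was present in every library, at 54.4, 87.7 and 127 CPM in PD16 and 55.2, 65.1 and 79.2 CPM in GD21 libraries (0.23, edgeR adjusted p = 0.0416), and lost its call in 6 of the 32 fits that left out 1 library.

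Genes outside the lists completed the largest differences. Crabp1, which binds retinoic acid in the cytoplasm, had 16.3, 45.5 and 101 CPM in PD16 libraries and 0, 3.77 and 5.37 CPM in GD21 libraries, without overlap (3.66, edgeR adjusted p = 8.03e-12). Mdk, the growth factor midkine, had 73.5, 109 and 204 CPM in PD16 and 11.8, 24.5 and 32.1 CPM in GD21 libraries (2.10, edgeR adjusted p = 1.29e-15). Madcam1, an adhesion molecule of vessels, had 20.0, 35.6 and 68.3 CPM in PD16 libraries and 1.53, 4.22 and 10.7 CPM in GD21 libraries (2.64, edgeR adjusted p = 2.04e-13). At all 3, every PD16 library lay above every GD21 library. Crabp1 and Madcam1 reached the test only through PD16, where they are high, so their separation follows in part from the filter. Cd83, a membrane protein of activated immune cells (3.17, edgeR adjusted p = 1.02e-09), the morphogen Bmp4 (2.49, edgeR adjusted p = 2.31e-09) and the secreted Wnt modulator Sfrp4 (2.08, edgeR adjusted p = 1.41e-07) were higher with overlapping ranges. Cd83, Bmp4 and Sfrp4 also reached the test only through PD16. Calb2, the calcium-binding protein calretinin, had 0, 4.64 and 341 CPM in PD16 and 0, 4.13 and 31.3 CPM in GD21 libraries, so a few PD16 libraries carried the difference (2.72, edgeR adjusted p = 0.00876). Calb2 fell to a log2 fold change of 1.98 without PD16 MMI16 75, and to 0.41 with no call among numbers up to 56 (adjusted p = 0.698). Uts2, the peptide urotensin 2, was lower, with 0, 0.772 and 8.16 CPM in PD16 libraries and 5.91, 19.1 and 132 CPM in GD21 libraries (-4.65, edgeR adjusted p = 8.67e-11). It reached the test only through GD21, where it is high.

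The age difference was also read within each dose. At 8 mg/kg 1214 genes were higher and 1364 lower (49.9% of 5171), and at 16 mg/kg 1186 were higher and 1322 lower (48.5%). At both doses 1973 genes were called in the same direction and 3 in opposite directions, of 3110 called at either. The 3 were Atf7ip (1.36 at 8 and -0.95 at 16 mg/kg), Spats2 (0.55 and -0.87) and Ube2e2 (-0.59 and 0.54), named after their values were seen, and their difference between doses was not called. The doses are separate rats at both ages, and the test of the difference between them called 1 gene, or 0.0193%, with 419 at an unadjusted p under 0.05 and, by DESeq2, 6 higher and 13 lower calls. That gene was Ptp4a2, a prenylated phosphatase. At 8 mg/kg Ptp4a2 averaged 717 ± 287 CPM in PD16 and 836 ± 159 CPM in GD21 libraries (SD, n = 10 and 6), and was not called. At 16 mg/kg it averaged 245 ± 83.9 CPM in PD16 and 896 ± 153 CPM in GD21 libraries (SD, n = 10 and 6). The interaction had a log2 value of -1.68 (SE 0.32, edgeR adjusted p = 0.0415), and it was not called with DESeq2 size factors, without a filter, with a mean of 10 CPM as the filter or without the libraries high in Alb. Hbz had log2 fold changes of 7.56 at 8 and 6.50 at 16 mg/kg, Cyp21a1 -1.56 and -1.73, and Fdps 2.36 and 1.44.

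The age difference under methimazole was compared with that in vehicle rats in 1 model of all 10 groups, with 6287 genes. PD16 vehicle libraries were higher than GD21 vehicle libraries for 1436 genes (22.8%) and lower for 1335 (21.2%). In this model methimazole had 1819 higher and 1994 lower. Both treatments called 2370 genes in the same direction and 142 in opposite directions, and across genes, which are not independent replicates, the 2 sets of log2 fold changes had a Pearson r of 0.828. The difference between them was called for 330 genes (5.25%), of which 4 were higher (0.0636%) and 326 lower (5.19%) in methimazole minus vehicle. Lists above with more than 1 member among the 330, all lower, included Sox9 and Notch (2 of 4) and the cortex regulators (3 of 15). Median age differences of these 2 lists were -0.90 and -0.42 in methimazole, and 0.54 and 0.03 in vehicle. Replication (3 of 33), endothelial (2 of 15) and early response and heat shock genes (2 of 16) had such calls too. No embryonic or adult globin, cholesterol import, side-chain cleavage or corticosteroid gene was among the 330, and of 22 cholesterol synthesis genes 1 was. That gene was Srebf2, with an age difference of -1.01 in methimazole and 0.73 in vehicle (-1.73, edgeR adjusted p = 1.71e-08). Hbz had 7.05 in methimazole and 6.28 in vehicle, with a difference that was not called (adjusted p = 0.778). Cyp21a1 had -1.64 in methimazole and -1.80 in vehicle.

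The 326 lower genes had a median age difference of -1.11 in methimazole and 0.62 in vehicle on the log2 scale. Of them 279 were called lower in methimazole and 189 higher in vehicle, 142 both at once. Because the 326 were picked by this difference in the same fit, low methimazole and high vehicle values are favoured by the choice. Qrich1, a regulator of the response to endoplasmic reticulum stress, averaged 47.6 ± 18.2 CPM in PD16 and 158 ± 70.9 CPM in GD21 methimazole libraries, against 369 ± 83.1 and 122 ± 31.9 CPM in vehicle libraries of the same ages (SD, n = 20, 12, 10 and 6). It was thus lower with age under methimazole and higher with age under vehicle, and its interaction was called (-3.44, edgeR adjusted p = 2.90e-18). Ccn1, a matrix-bound signalling protein, averaged 16.6 ± 6.39 CPM in PD16 and 66.3 ± 26.0 CPM in GD21 methimazole libraries, against 112 ± 35.7 and 43.7 ± 12.2 CPM in vehicle libraries (-3.45, edgeR adjusted p = 4.20e-12). The interaction was also negative for Ptx3, a soluble receptor of innate immunity (-3.63, edgeR adjusted p = 1.32e-08), and Vtcn1, an inhibitory ligand of T cells (-3.47, edgeR adjusted p = 3.73e-10). Fam111a, a protease, was negative too (-3.35, edgeR adjusted p = 0.0308) but was not called without a filter, with only the groups of the contrast, with thinned counts or without the libraries high in Alb. The higher genes were led by Shc1, an adaptor of growth factor receptors (2.31, edgeR adjusted p = 0.00124), Uhrf1bp1l (0.69, edgeR adjusted p = 0.0429) and Map2k3, a kinase of the p38 pathway (0.62, edgeR adjusted p = 0.00836). Uhrf1bp1l lost its call in those 4 fits and in 2 others, and Map2k3 without the libraries high in Alb. Shc1 averaged 27.3 ± 17.9 CPM in PD16 and 21.0 ± 26.0 CPM in GD21 methimazole libraries, and 21.2 ± 10.3 and 90.3 ± 114 CPM in vehicle libraries, so the GD21 vehicle libraries varied by more than their mean.

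Amitrole, another inhibitor of thyroid peroxidase, shares no library with either. Its libraries did not all match in the Y-linked Eif2s3y. In 8 of the 12 PD16 libraries of 50 mg/kg Eif2s3y was at most 3.65 CPM, against at least 43.3 CPM in the other 4 and in every other library of the series. The comparison was also fitted without those 8 libraries, a choice made after seeing the data. The age difference under amitrole was called for 517 genes higher (8.22%) and 602 lower (9.58%). Without the 8 libraries those counts were 105 higher and 478 lower, of 6688 genes. Of the 326 genes above, 317 were lower in PD16 amitrole libraries as well and none was higher, at a median log2 fold change of -1.76 against 0.04 over all genes, and 309 were lower without the 8 libraries. Qrich1 averaged 30.8 ± 12.0 CPM in PD16 and 249.9 ± 98.0 CPM in GD21 amitrole libraries (SD, n = 23 and 12). The test of methimazole minus amitrole called 2453 genes (39%), 1188 higher (18.9%) and 1265 lower (20.1%). Without the 8 libraries it called 1268 higher and 1209 lower, and 2195 calls were shared in direction with those from all libraries. Among the 326 genes 186 were higher and 13 lower in it, and without the 8 libraries 185 and 11. By the labelled ages, the globins divided methimazole from amitrole libraries. Hbz had 7.05 under methimazole and -0.54 under amitrole (7.58, edgeR adjusted p = 4.01e-25), and Hbe1 had a positive interaction as well (6.60, edgeR adjusted p = 2.15e-22). As given above, embryonic globins were low in amitrole libraries of both labelled ages. Whether the compound or exchanged labels gave the differences between methimazole and amitrole was not tested. Hbg1 (3.05, edgeR adjusted p = 4.20e-08), Crabp1 (3.78, edgeR adjusted p = 1.24e-08) and Akr1c3 (3.43, edgeR adjusted p = 1.55e-04) were the other genes with the largest positive values. Cyp21a1 had -1.64 under methimazole and 0.01 under amitrole, and Fdps 1.91 and -0.20. Without the 8 libraries the amitrole values were -0.22 for Cyp21a1 and -0.42 for Fdps. Of 31 mitosis genes 26 were higher in methimazole minus amitrole, and of 22 cholesterol synthesis genes 16 were higher and 1 lower. Without the 8 libraries 23 of 32 mitosis genes and 16 of 22 cholesterol synthesis genes were higher. The largest negative values were those of Fabp1 (-5.95, edgeR adjusted p = 0.00751), Fga (-5.14, edgeR adjusted p = 0.00771) and Serpinc1 (-4.74, edgeR adjusted p = 0.00624) of liver, Ckm of muscle (-5.04, edgeR adjusted p = 0.00252) and Rbp2 of intestine (-4.70, edgeR adjusted p = 0.00912). Without the libraries high in Alb, Serpinc1 had -1.49 and was not called (adjusted p = 0.592), Ckm had -4.08 (adjusted p = 0.0207), and Fabp1, Fga and Rbp2 were too low to be tested. Without the 8 libraries low in Eif2s3y, Ckm was not called (-3.64, adjusted p = 0.151), Akr1c3 had 4.92 (adjusted p = 2.73e-07), and the other 8 genes with the largest values kept their direction and call.

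**Figure D5:**
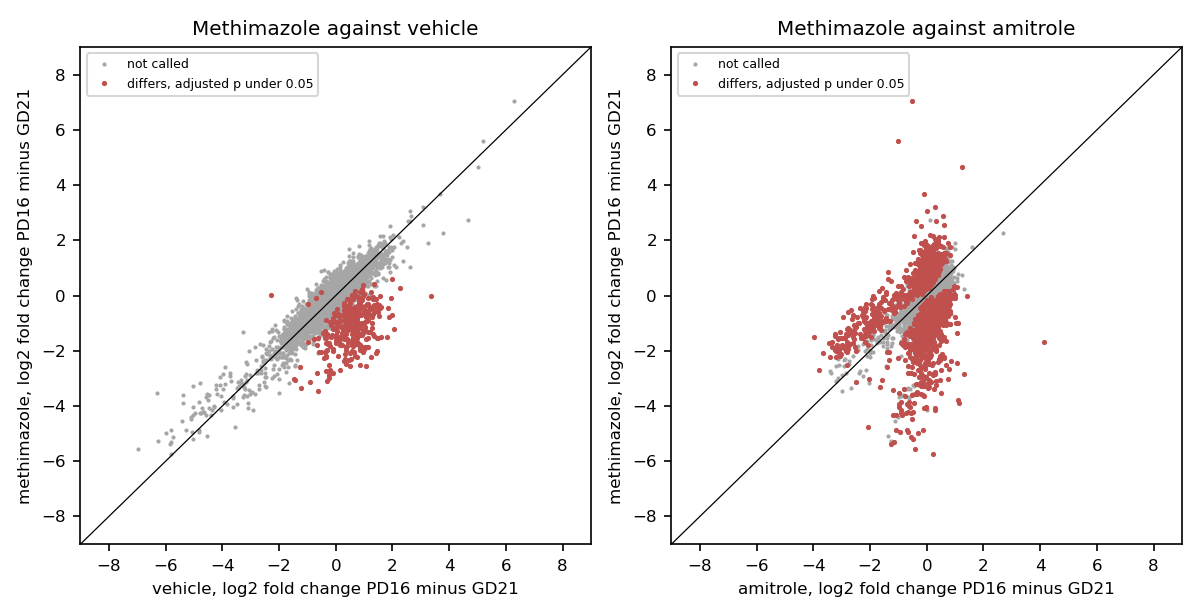
Each point is 1 of 6287 genes, with the log2 fold change (PD16 minus GD21) of methimazole libraries on the vertical axis and that of vehicle (left) or amitrole (right) libraries on the horizontal axis, and red points were called as different (330 and 2453). The vehicle panel follows the line of equal change apart from a group below it, and the amitrole panel does not follow it.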

How the data were processed

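Libraries were made by BRB-seq from polyadenylated RNA, per the labels' protocols, and the submitters' processing notes name BWA 0.7.4.4 and the build rn6. The authors deposited whole-number read counts per gene symbol, not normalized. Annotation, strand setting and handling of reads that fit several genes are not stated in the labels or headers. All p-values measure the spread between libraries, because litters and animals are not given.

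Counts of the 32 methimazole libraries were tested with edgeR 4.0.16 (limma 3.58.1, R 4.3.3): filterByExpr with a minimum count of 10 on the 4 groups, TMM scaling, robust quasi-likelihood F tests with dose as a block, and Benjamini-Hochberg adjustment over all 5171 genes. Doses were compared in a 4-group model and treatments in a 10-group model of 83 libraries. Levels are CPM, each count scaled by its library's total to a total common to all libraries. No pair of libraries of 1 group agreed within sampling noise (lowest chi-square per degree of freedom 1.64 over 120 pairs). The steps were tested on simulated counts.

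Genes named are the 12 largest called differences in each direction with a mean of 20 CPM or more at the higher age, up to 4 called members per list, a fixed panel, and the 5 largest of each interaction in each direction. List members named as exceptions were chosen after their values were seen. The members, gene lists and motifs were chosen with earlier results of these data known. Promoters came from RefSeq (GRCr8): 15578 of 17483 symbols matched a current symbol and 1556 a synonym. Alternatives were DESeq2 1.42.0, other scaling, filters, thinning, a covariate for the library number series and leaving out libraries.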

Additional observations from a re-analysis of the deposited data

Results flagged for a closer look

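Of 112 group and measure combinations examined, 22 had a value far from the rest of its group. The limit gives about 1 in 20 by chance for normally spread values. CPM values need not be so spread, and the measures share libraries and counts, so the 22 cannot be set against that rate. PD16 MMI16 10, the library with the lowest total, had 272 CPM of Th, 400.5 of Pnmt, 687 of Igf2, 583 of H19, 593 of Dlk1 and 198 of Mki67, each apart from the other MMI16 libraries of its age. PD16 MMI16 9 stood apart with 507 CPM of Alb and 1821 CPM over the liver genes, and PD16 MMI8 63 with 183 CPM over the liver genes. PD16 MMI8 66 had 59.3 CPM of Pnmt and PD16 MMI8 7 had 297 CPM of Igf2.

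Among GD21 libraries, MMI8 45 had 10976 CPM of Alb, 35023 CPM over the liver genes, 365 CPM of Igf2 and 273 CPM of H19. MMI16 47 had 463 CPM of Igf2, 999.9 CPM of H19, 249 CPM of Dlk1, 71.6 CPM of Mki67 and 19.4 CPM of Thra. MMI16 48 had 20112 CPM of Cyp11a1 and 2570 CPM of Hbb-b1.

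The age difference itself differed between treatments. Methimazole minus vehicle had 4 genes higher and 326 lower, and methimazole minus amitrole 1188 higher and 1265 lower (edgeR quasi-likelihood test of the interaction). The log2 values against vehicle were 2.31 for Shc1, 0.69 for Uhrf1bp1l, 0.62 for Map2k3, -3.63 for Ptx3, -3.47 for Vtcn1, -3.45 for Ccn1, -3.44 for Qrich1 and -3.35 for Fam111a. Against amitrole they were 7.58 for Hbz, 6.60 for Hbe1, 3.78 for Crabp1, 3.43 for Akr1c3, 3.05 for Hbg1, -5.95 for Fabp1, -5.14 for Fga, -5.04 for Ckm, -4.74 for Serpinc1 and -4.70 for Rbp2. Between doses, Ptp4a2 had -1.68 for 16 minus 8 mg/kg.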

How the results depend on the processing

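No paired analysis was possible because the groups share no library numbers. Leaving out 1 library at a time gave 1533 to 1818 higher and 1476 to 1757 lower genes for the age difference. Without a filter 1814 genes were higher and 2712 lower, of 14182 tested. Thinned to the lowest total, 937 were higher and 964 lower of 3131 genes tested. Within doses the thinned calls were 666 and 787 at 8 mg/kg, and 692 and 756 at 16 mg/kg. Of 3712 genes tested in the thinned 10-group model, 10 were higher against vehicle, and 694 were higher and 733 lower against amitrole. Thinning leaves fewer counts to test. The test between doses, with 1 lower gene, had 6 higher and 13 lower by DESeq2, 2 and 11 with all 10 groups, 1 and 2 with the number series as a covariate, 2 lower when thinned, 1 higher without the shallowest library, and 0 lower with DESeq2 size factors, without a filter, at a mean of 10 CPM or without the libraries high in Alb. Against vehicle, 11 genes were higher by DESeq2, 8 without globins and 2 with the covariate. The log2 fold change of Cyp11b1 was -0.00776 without a filter and -0.027 to 0.096 with 1 library left out. Igf2 had 0.37 and H19 0.78 without the libraries high in Alb, H19 had 0.44 among numbers from 57, and leaving out 1 library gave -0.39 to 0.039 for Igf2 and -0.39 to 0.36 for H19. The cause was not tested. Without the libraries high in Alb, Ahsg, C1qa and Ttr in the age difference and Fabp1, Fga and Rbp2 against amitrole were too low to test. By DESeq2 all 149 named values kept their direction and call. Low totals in PD16 limit genes near the value of 1 count.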

Other observations

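Of genes in none of the lists, the 6 higher and 6 lower ones with the smallest p were picked after their values were seen. Snrpa, of the U1 spliceosomal particle, had 204, 249 and 274 CPM (lowest, median and highest) in PD16 libraries and 65.2, 77.6 and 112 CPM in GD21 libraries (1.41, edgeR adjusted p = 2.60e-19). Nop56, of the particles that methylate ribosomal RNA, had 147, 214 and 248 CPM in PD16 and 52.5, 66.8 and 83.6 CPM in GD21 libraries (1.38, edgeR adjusted p = 4.22e-17). Tcp1, of the chaperonin that folds actin and tubulin, had 291, 372 and 439 CPM in PD16 and 148, 161 and 172 CPM in GD21 libraries (0.98, edgeR adjusted p = 2.72e-17). Dctpp1, a nucleotide pyrophosphatase (1.24, edgeR adjusted p = 7.42e-18), Fkbp3, a prolyl isomerase (1.01, edgeR adjusted p = 5.73e-17), and Cdca8, of the chromosomal passenger complex (1.33, edgeR adjusted p = 1.08e-16), were the others. In all 6, every PD16 library was above every GD21 library.

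Vdac1, the channel of the outer mitochondrial membrane, had 409, 617 and 907 CPM in PD16 libraries and 1500.0, 1825 and 2178 CPM in GD21 libraries (-1.79, edgeR adjusted p = 6.85e-21). Decr1, which helps break down unsaturated fatty acids, had 132, 162 and 224 CPM in PD16 and 390.3, 428 and 532 CPM in GD21 libraries (-1.57, edgeR adjusted p = 3.01e-20). Mknk2, a kinase of the translation factor eIF4E, had 48.0, 92.5 and 176 CPM in PD16 and 414, 468 and 567 CPM in GD21 libraries (-2.53, edgeR adjusted p = 6.85e-21). Tmem176b, a membrane protein (-2.29, edgeR adjusted p = 1.16e-21), the histone gene Hist1h2bq (-2.30, edgeR adjusted p = 7.82e-21) and Sdc4, the proteoglycan syndecan 4 (-2.59, edgeR adjusted p = 2.50e-19), were lower as well. In all 6, every PD16 library was below every GD21 library.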
